A study of Mus musculus with 12 samples.

Results

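DNA replication and S phase genes, the genes whose products copy the genome once per cell division, were followed in mouse Th9 cells treated with EpA, with fatostatin, with both or with DMSO. The 47 members were chosen by gene symbol for their known roles in replication and S phase entry, not by a threshold on the measured values. All 47 were found among the 32051 genes of the expression table, and all 47 passed the minimum of a mean of 0.1 FPKM (reads scaled to the length of the transcript and to the size of the library) over the 12 libraries, as did 13733 genes in all. They were ordered by role into origin licensing (10 genes), helicase activation (6), the sliding clamp and its loader (6), primase and polymerases (8), single strand binding and Okazaki fragment joining (4), nucleotide supply (4), E2F factors and cyclin E (5), and a last group of 4 that act at the fork, in CRL4 ubiquitination, in chromatin or on histone mRNA.

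Bulk RNA-seq was performed on Th9 cells, an IL-9-producing helper T cell subset, on day 4 of culture. All 12 libraries came from naive CD4+ T cells, isolated from the spleens of C57BL/6J mice, that had been stimulated through CD3 and CD28 and given IL-4 at 10 ng/mL and TGF-β at 1 ng/mL with antibodies to IL-12 and IFN-γ, so the controls carried the same polarization and activation as the treated cells. The groups of 3 libraries each were DMSO vehicle, EpA (a cyclic peptide from a fungus), fatostatin in DMSO (an inhibitor of SREBP, the transcription factor of lipid synthesis; DMSO+fato in the labels), and EpA with fatostatin (EpA+fato). The study's methods and legends give 10 μM for EpA and 5 μM for fatostatin, also in a legend for RNA-seq of these 4 treatments. A legend of the study calls its Th9 RNA-seq samples independent, but neither it nor the labels state whether the 3 libraries of a group came from separate animals or cultures, so p-values measure only the spread between these samples, which may be technical. The cells were cultured in vitro and not sorted by cell cycle phase, and in bulk RNA fewer cells in S phase and less of a transcript per cell cannot be told apart.

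Before each S phase, the origin recognition complex with CDC6 and CDT1 loads the MCM2-7 helicase onto DNA, and CDC45 and the GINS complex then turn it into the moving helicase. Primase and polymerase α start each strand, the clamp PCNA, opened by the RFC loader, holds polymerases δ and ε on the template, and FEN1 and LIG1 finish the lagging strand. Many of these genes are transcribed together around the G1/S boundary, when cyclin E and CDK2 release activating E2F factors such as E2F1 and E2F2 from RB, while E2F8 is an atypical E2F that represses E2F target genes later in S phase. Activated T cells divide rapidly and express this programme strongly.

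The deposited FPKM values could be turned back into whole reads for 98.3% to 98.5% of the values checked (within 0.05 reads), which gave 36019740 to 43656682 reads on genes per library. A member held between 411 and 36210 reads in a library. The FPKM of all genes summed to 279720 and 280099 in replicate 1 of the combination and of the fatostatin group, below the 284239 to 286956 of the other 10 libraries. The summed level of the T cell and Th9 markers without Il9 was 911 to 921 FPKM in the DMSO libraries, 838 to 842 with EpA, 899.5 to 917 with fatostatin and 834 to 843 with both compounds, while Il9 itself averaged 54.6 FPKM with DMSO and 821 FPKM with both. With both compounds, 5 of the 11 tested markers of this list were lower than with DMSO (Cd3d, Cd3e, Cd3g, Cd28 and Lck) and 4 higher (Cd4, Il9, Irf4 and Batf), with a median log2 difference of -0.072. The CD8 T cell markers summed to 8.71 to 9.79 FPKM with DMSO, 7.85 to 8.57 with EpA, 8.55 to 10.2 with fatostatin and 6.98 to 8.60 with both, and Cd8a, 1 of the 2, was lower than with DMSO with EpA and with both (1.81 FPKM against 0.802 and 0.491 FPKM). The myeloid and dendritic cell markers summed to 1.64 to 1.86 FPKM with DMSO, 1.77 to 2.13 with EpA, 1.98 to 2.75 with fatostatin and 2.21 to 3.08 with both, and 2 of 3 tested (Lyz2 and Cd68) were higher with both than with DMSO, a count that was 1 without DMSO replicates 1, 2 or 3 or combined replicates 1 or 3. The B cell markers summed to 5.97 to 7.88 FPKM with DMSO, 5.19 to 6.21 with EpA, 7.51 to 8.62 with fatostatin and 6.23 to 6.86 with both, and of the 3 tested Cd79a was lower with EpA than with DMSO (log2 difference -0.60, a call lost without EpA replicate 1) and higher with both than with EpA (0.72). With EpA alone against DMSO, 7 of the 11 T cell and Th9 markers were lower and 3 higher, and with fatostatin alone 2 and 4. Of all tested genes, 13.1% were lower and 14.3% higher with EpA, 6.31% and 7.69% with fatostatin, and 15.8% and 19.7% with both. Of the myeloid and dendritic cell markers, Lyz2 was also higher with each compound alone. The part of these shifts in the results below was not tested.

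The replication genes were expressed well above the typical gene. Their median level in the DMSO libraries was 29.1 FPKM, against 5.00 FPKM for all tested genes, 46 of 47 members exceeded 10 FPKM, and 37 lay above the upper quartile of tested genes (15.1 FPKM). Pcna, the sliding clamp, was the highest at 289 ± 2.29 FPKM (mean ± SD, n = 3), followed by Rrm2, the small subunit of ribonucleotide reductase, at 209 ± 5.62 FPKM. Of the helicase subunits, Mcm6 stood at 178 ± 0.769 FPKM, Mcm5 at 163 ± 2.05 FPKM, Mcm3 at 151 ± 2.40 FPKM, Mcm4 at 128 ± 0.508 FPKM and Mcm7 at 112 ± 2.02 FPKM, whereas Mcm2 was lower at 42.7 ± 0.534 FPKM. The E2F and cyclin E genes were lower than these, with E2f2 at 24.8 ± 0.655 FPKM, E2f8 at 14.7 ± 0.164 FPKM, E2f1 at 13.6 ± 0.447 FPKM, Ccne1 at 25.2 ± 0.606 FPKM and Ccne2 at 16.3 ± 0.582 FPKM. Such levels were not particular to them, as Tk1 stood at 24.8 FPKM and Pola1 at 14.0 FPKM. Fen1, the flap endonuclease of Okazaki fragments, was the lowest member at 4.72 ± 0.0803 FPKM, and 1909 bases of its exons overlapped Gm10143 and 130 overlapped Tmem258, both on the opposite strand, the latter at a mean of 35.7 FPKM. Exons of Rpa1 share 44 bases with Gm47300 and those of Mcm7 84 and 88 bases with Mir25 and Mir93 on the same strand, and exons of Pole, Tk1, Rfc5 and Rfc2 share 78 to 952 bases with a gene on the opposite strand. The median coefficient of variation of a member was 1.77% over the DMSO libraries, 2.02% with EpA, 2.56% with fatostatin and 2.47% with both. The small differences below were judged by the SEs of the fit over all 12 libraries.

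**Figure D1:**
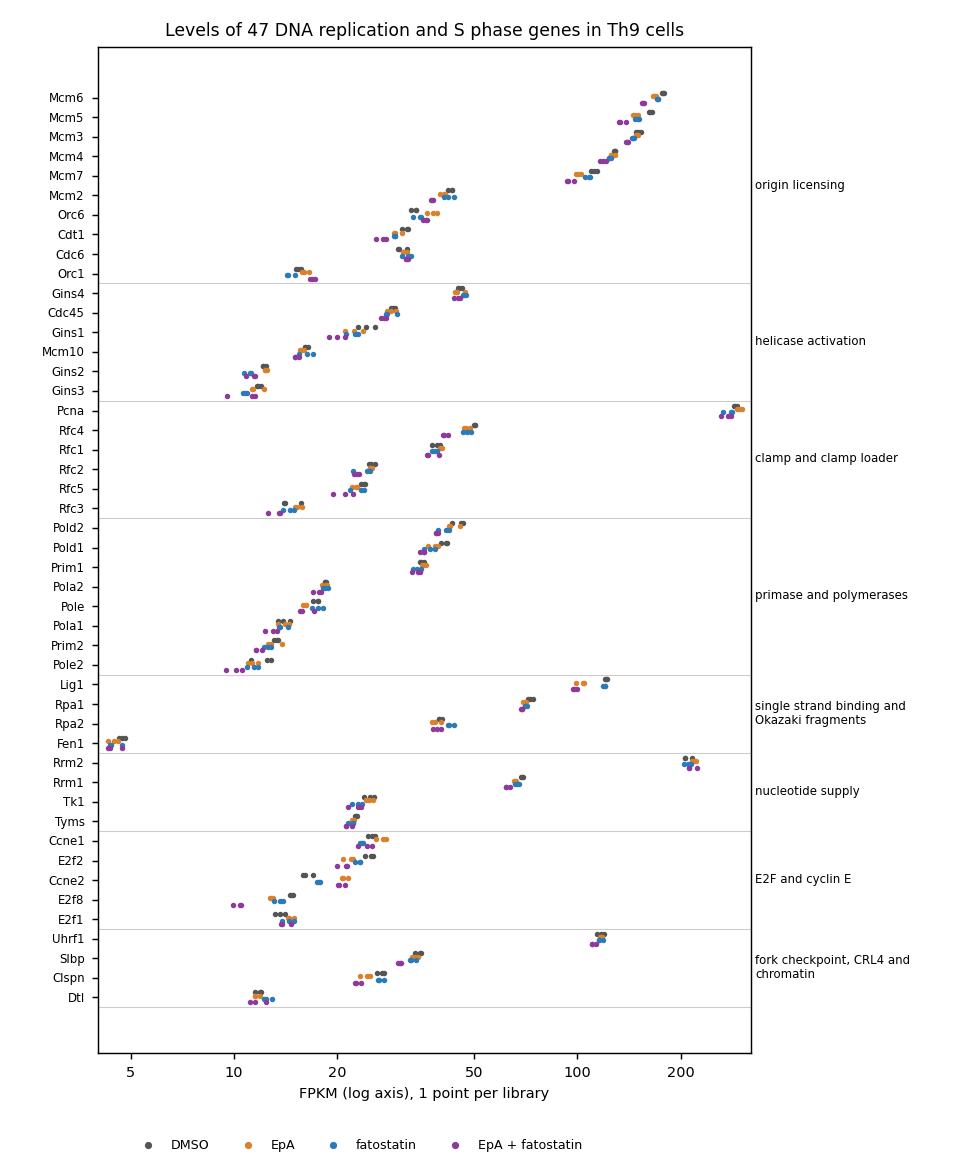
Level of each of the 47 genes in each of the 12 libraries, as FPKM on a log axis, ordered by role and coloured by group (DMSO, EpA, fatostatin, EpA with fatostatin). Each point is 1 library, the DMSO means span 4.72 FPKM (Fen1) to 289 FPKM (Pcna), and the points of the 4 groups lie close together on this scale.

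Some promoters of the members held E2F words. The choice of genes did not read sequences, but it was by roles in replication and S phase entry. Because E2F factors drive many such genes, the share with a word is not independent of that choice. RefSeq promoter windows on GRCm38.p6, from 250 bases before to 50 bases after a transcription start, were at hand for 39 of the 47 members, and not for Gins1, Gins2, Gins4, Mcm4, Rfc2, Prim2, Pole and Ccne2. They were searched on both strands for 4 words of the E2F site, TTTCCCGC, TTTGGCGC, TTTCGCGC and TTTGCCGC, and for CCAAT, the NF-Y box. An E2F word was present in 17 of 39 members (43.6%), against 704 of 27025 genes with a window (2.60%), and CCAAT in 26 members (66.7%), against 41.1% of all genes. A match is a description of the letters and does not show that a factor bound there. The windows of the 4 members with an E2F word that fell most with both compounds, and of Orc1, the member with such a word that rose, are printed because they show where such words stood at genes that moved in opposite directions. The words began before the transcription start of the printed window in Mcm5 (-153) and Orc1 (-27). They began after it in Lig1 (27), Pole2 (11) and E2f2 (40), in bases from that start. Lig1 had 3 windows and E2f2 had 2, for different starts, and a gene was counted if any of its windows held the word. In each line the sequence runs 5′ to 3′ on the gene's strand, with E2F words in capitals (2 overlapping words, 1 on each strand, in Mcm5).
Lig1 (chr7:13278576-13278875, plus strand): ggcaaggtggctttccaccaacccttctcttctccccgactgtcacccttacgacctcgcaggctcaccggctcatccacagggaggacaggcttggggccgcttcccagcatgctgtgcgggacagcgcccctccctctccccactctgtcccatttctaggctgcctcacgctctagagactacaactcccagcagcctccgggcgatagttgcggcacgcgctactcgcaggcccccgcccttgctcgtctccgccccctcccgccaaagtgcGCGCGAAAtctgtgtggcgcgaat
Mcm5 (chr8:75109259-75109558, plus strand): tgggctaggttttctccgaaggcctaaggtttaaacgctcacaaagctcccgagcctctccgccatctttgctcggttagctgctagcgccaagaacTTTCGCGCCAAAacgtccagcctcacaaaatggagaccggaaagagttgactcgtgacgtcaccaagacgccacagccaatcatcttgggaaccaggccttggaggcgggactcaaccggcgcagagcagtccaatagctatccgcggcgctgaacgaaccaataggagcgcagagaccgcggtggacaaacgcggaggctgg
Pole2 (chr12:69228141-69228440, minus strand): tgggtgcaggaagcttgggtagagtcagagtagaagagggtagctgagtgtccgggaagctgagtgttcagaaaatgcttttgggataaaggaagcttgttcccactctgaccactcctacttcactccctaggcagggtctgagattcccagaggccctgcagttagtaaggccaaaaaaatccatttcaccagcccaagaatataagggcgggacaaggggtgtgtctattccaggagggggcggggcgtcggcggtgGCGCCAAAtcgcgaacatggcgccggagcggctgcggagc
E2f2 (chr4:136172024-136172323, plus strand): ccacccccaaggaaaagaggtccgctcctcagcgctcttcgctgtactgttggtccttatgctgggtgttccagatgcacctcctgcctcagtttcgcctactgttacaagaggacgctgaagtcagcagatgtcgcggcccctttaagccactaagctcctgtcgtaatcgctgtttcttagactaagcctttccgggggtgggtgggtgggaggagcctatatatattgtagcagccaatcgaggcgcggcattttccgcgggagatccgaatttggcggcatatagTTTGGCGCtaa
Orc1 (chr4:108579204-108579503, plus strand): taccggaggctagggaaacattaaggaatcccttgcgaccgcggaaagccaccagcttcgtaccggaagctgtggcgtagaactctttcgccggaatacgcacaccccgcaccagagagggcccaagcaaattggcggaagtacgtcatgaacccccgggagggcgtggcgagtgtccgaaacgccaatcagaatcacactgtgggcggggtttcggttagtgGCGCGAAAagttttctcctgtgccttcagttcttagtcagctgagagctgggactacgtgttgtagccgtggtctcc

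The comparison of EpA and fatostatin together with DMSO gave the largest changes, and the replication genes mostly fell. With limma on log2(FPKM + 0.1) and Benjamini-Hochberg adjustment over all 13733 genes, 31 of 47 members were lower and 3 were higher at an adjusted p below 0.05, while 15.8% of all tested genes were lower and 19.7% higher. The median log2 difference of the members was -0.12, against 0.016 for all tested genes. The falls were small. None of the 47 passed 1.5-fold at an adjusted p below 0.05 in this or any other comparison, by limma or by voom on the recovered reads. At an unadjusted p below 0.05 by limma, 0 members passed 1.5-fold either. Here 5.64% of all genes passed 1.5-fold at an adjusted p below 0.05. At the same adjusted p, 7 members passed 1.2-fold (background 16.5%). Against EpA alone, the combination lowered 21 members (background 6.79%) and raised 0 (background 9.22%), with a median of -0.086. For that 0, 1 member was higher at an unadjusted p below 0.05 (background 16.0%) and voom called 0. Against fatostatin alone, the combination lowered 20 members (background 13.3%) and raised 2 (background 16.2%), with a median of -0.072. The comparisons share libraries with one another, and their counts are not independent. Lists of lost calls below name the libraries left out 1 at a time. Where others of the 20 alternatives to this fit also ended a call, their total or their names are given.

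Each compound alone moved fewer members. EpA against DMSO lowered 12 of 47 (background 13.1%) and raised 2 (background 14.3%), with a median log2 difference of -0.027. Fatostatin against DMSO lowered 7 (background 6.31%) and raised 2 (background 7.69%), with a median of -0.048. The fatostatin counts depended on single libraries: the count lowered was 3 without DMSO replicate 1 or 3 and 4 without fatostatin replicate 1 or 2, and the count raised was 0 without DMSO replicates 2 or 3 or fatostatin replicates 2 or 3, and 1 without DMSO replicate 1 or fatostatin replicate 1. The count lowered by EpA was 8 without EpA replicate 3. Past 1.5-fold, where no member lay, the background was 3.38% with EpA, 1.86% with fatostatin, 1.99% for the combination against EpA and 3.75% against fatostatin. Past 1.2-fold lay 1 member with EpA (background 10.9%), 1 for the combination against EpA (background 6.17%) and 2 against fatostatin (background 12.3%). With fatostatin alone 0 members passed both limits by limma (background 5.27%), 0 at an unadjusted p below 0.05 and 0 by voom. Over the 5 comparisons between groups, 36 members passed the test at least once (background 49.1%), 33 of them as lower (background 25.5%) and 4 as higher (background 30.2%; Ccne2, Orc1, Orc6 and Rpa2, the last also lower in 1 comparison). E2f8, Mcm5 and Mcm6 passed as lower in all 5 (background 1.05%). The 11 members that passed in none were Cdc6, Dtl, E2f1, Fen1, Gins3, Gins4, Pola1, Pola2, Prim1, Rfc1 and Rrm2.

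By library, the median of the 47 members relative to the DMSO mean was 0.00050, -0.0080 and 0.0015 on the log2 scale in the DMSO libraries, -0.036, -0.043 and -0.017 with EpA, -0.063, -0.043 and -0.042 with fatostatin and -0.12, -0.12 and -0.10 with both. The 3 libraries with both compounds were the lowest of the 12, the DMSO libraries were the highest, and those with 1 compound lay between.

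**Figure D2:**
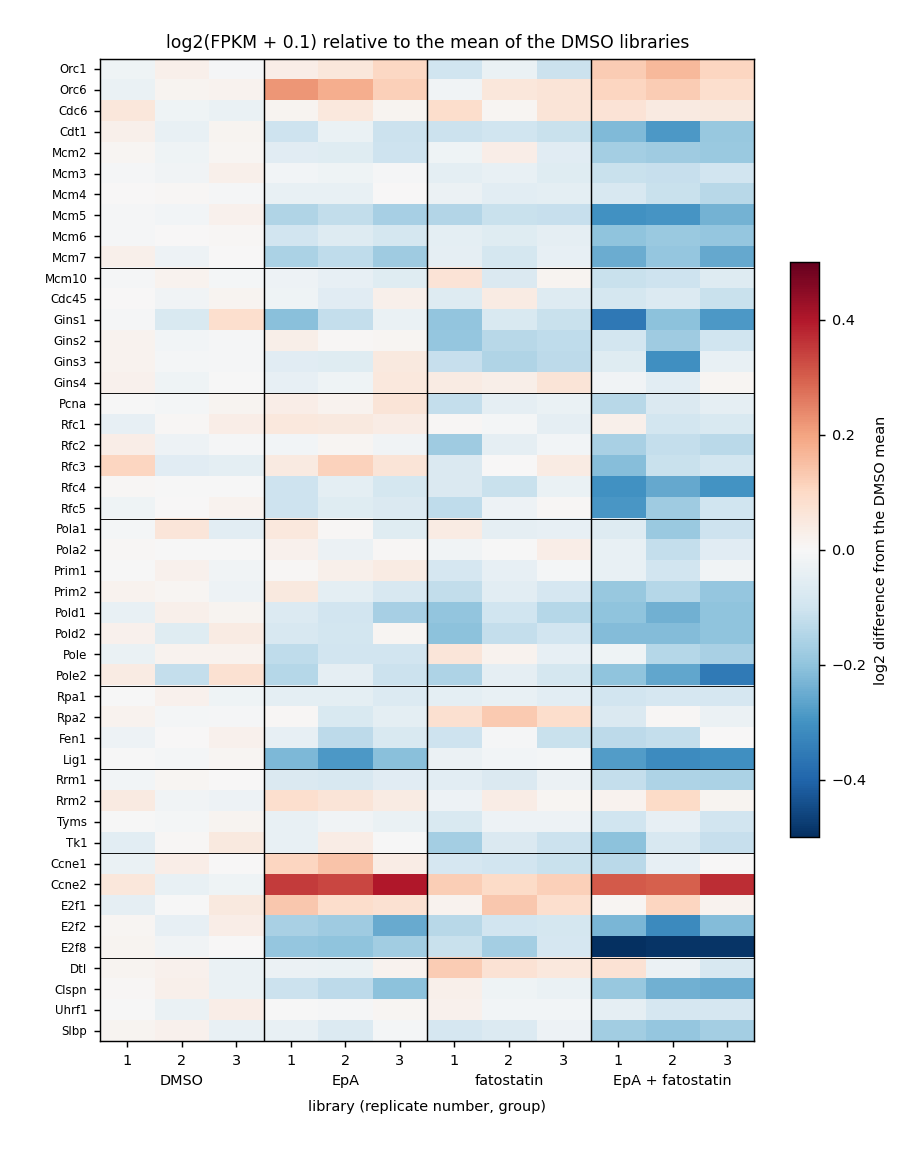
Heat map of log2(FPKM + 0.1) of the 47 genes (lines, grouped by role) in the 12 libraries (columns) relative to the mean of the 3 DMSO libraries, with colours limited at 0.5 in either direction. Most lines are blue in the 3 columns with both compounds, where the library medians were -0.12, -0.12 and -0.10, and Ccne2 is red in the EpA columns.

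Among the origin licensing genes, the helicase subunits and Cdt1 fell. With both compounds 7 of 10 were lower (background 15.8%) and 2, Orc1 and Orc6, higher (background 19.7%) than with DMSO, with a median log2 difference of -0.14, and all 6 subunits of the helicase ring were among the lower. The count higher, a share near the background, was 1 without combined replicate 2. Mcm5 (chr8:75109569-75128439) measured 163, 162 and 166 FPKM in the DMSO libraries, 147, 150.0 and 146 with EpA, 148, 151 and 150.5 with fatostatin, and 132, 133 and 138 with both compounds. The ranges of all compared groups were separate, with both compounds below either compound alone and DMSO above both. The log2 difference was -0.15 ± 0.021 (adjusted p = 3.5e-04) with EpA, -0.12 ± 0.021 (adjusted p = 0.002) with fatostatin and -0.28 ± 0.021 (adjusted p = 1.5e-06) with both, the error being the SE. Mcm7 (chr5:138164583-138172422) measured 114, 109.7 and 112 FPKM in the DMSO libraries, 100.1, 102 and 98.9 with EpA, 108, 105 and 109 with fatostatin, and 94.1, 97.8 and 93.5 with both compounds. The EpA libraries were below all DMSO and all fatostatin libraries, and those with both compounds lowest. Its log2 difference was -0.15 ± 0.023 (adjusted p = 5.2e-04) with EpA and -0.23 ± 0.023 (adjusted p = 1.4e-05) with both. For the combination against EpA it was -0.079 ± 0.023 (adjusted p = 0.039). That call was lost without DMSO replicate 3, EpA replicates 1 or 2 or combined replicates 1 or 3 (adjusted p = 0.0546 to 0.135). It was lost under 9 of 20 alternatives in all. Exons of Mcm7 overlap those of Ap4m1 and Cops6 on the opposite strand, by 321 and 64 bases, and the sources used here do not give the strand setting of the counting.

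Mcm6 measured 177, 178 and 178 FPKM in the DMSO libraries, 166, 170.0 and 167 with EpA, 172, 171 and 172 with fatostatin, and 155, 157 and 156 with both compounds. Its groups were also separate in all 5 comparisons. The fatostatin difference, -0.052 ± 0.014 (adjusted p = 0.03), was lost without DMSO replicates 1, 2 or 3 or fatostatin replicates 1, 2 or 3 (adjusted p = 0.0586 to 0.0952). It was lost under 8 of 20 alternatives in all. The combination lowered Mcm6 by 0.19 ± 0.014 (adjusted p = 1.2e-06) on the log2 scale against DMSO. Mcm2 measured 43.03, 42.1 and 43.00 FPKM in the DMSO libraries, 41.1, 40.9 and 39.8 with EpA, 42.1, 43.7 and 41.01 with fatostatin, and 37.9, 37.8 and 37.6 with both compounds. The libraries with both compounds were below all 9 others, while fatostatin alone overlapped DMSO, and the difference with both was -0.18 ± 0.024 (adjusted p = 1.5e-04). With EpA alone the difference was -0.073 ± 0.024 (adjusted p = 0.042). That call was lost without DMSO replicates 1, 2 or 3, EpA replicates 1, 2 or 3, fatostatin replicate 1 or combined replicates 1, 2 or 3 (adjusted p = 0.0504 to 0.146). It was lost under 12 of 20 alternatives in all. Mcm3 measured 149.8, 149 and 153 FPKM in the DMSO libraries, 149, 148 and 150.0 with EpA, 146, 147 and 144 with fatostatin, and 139, 139 and 141 with both compounds. Mcm4 measured 128, 129 and 128 FPKM in the DMSO libraries, 125, 125 and 129 with EpA, 126, 124 and 124 with fatostatin, and 121, 119 and 117 with both compounds. In both genes EpA overlapped DMSO and the combination was below the other 3 groups, with a log2 difference from DMSO of -0.11 ± 0.016 (adjusted p = 2.5e-04) for Mcm3 and -0.11 ± 0.019 (adjusted p = 7.7e-04) for Mcm4.

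Cdt1, the loading factor for the helicase, measured 32.2, 30.8 and 31.9 FPKM in the DMSO libraries, 29.5, 30.9 and 29.3 with EpA, 29.4, 29.5 and 29.3 with fatostatin, and 27.1, 25.9 and 27.7 with both compounds. The combination was below all other groups, at -0.23 ± 0.030 (adjusted p = 9.2e-05) against DMSO and -0.15 ± 0.030 (adjusted p = 0.0049) against EpA. With fatostatin alone Cdt1 changed by -0.11 ± 0.030 (adjusted p = 0.034). That call was lost without DMSO replicates 1 or 3 or fatostatin replicates 1, 2 or 3 (adjusted p = 0.0734 to 0.117), and under 7 of 20 alternatives in all. Orc1, the largest subunit of the origin recognition complex (chr4:108579423-108614833), moved the other way and measured 15.2, 15.7 and 15.4 FPKM in the DMSO libraries, 15.8, 16.02 and 16.6 with EpA, 14.4, 15.1 and 14.3 with fatostatin, and 16.8, 17.3 and 16.6 with both compounds. All libraries with both compounds exceeded all DMSO and fatostatin libraries, and at the digits printed none lay below an EpA library. The fatostatin libraries were the lowest. Orc1 was higher with both compounds by 0.21 ± 0.029 (adjusted p = 2.7e-04) on the log2 scale against fatostatin and by 0.13 ± 0.029 (adjusted p = 0.0045) against DMSO. Orc6, another subunit of the complex (chr8:85299632-85308278), measured 32.8, 33.9 and 33.9 FPKM in the DMSO libraries, 39.1, 37.98 and 36.4 with EpA, 33.1, 34.8 and 35.1 with fatostatin, and 36.1, 36.6 and 35.5 with both compounds. EpA raised Orc6 by 0.17 ± 0.030 (adjusted p = 0.0014), with all 3 EpA libraries above DMSO. With both compounds it was higher than with DMSO by 0.11 ± 0.030 (adjusted p = 0.018), a call lost without DMSO replicate 1 or combined replicate 2 (adjusted p = 0.0617 to 0.0715). Orc1 shares 376 exon bases with Gm12743 and Orc6 shares 171 with Vps35, both on the opposite strand. Cdc6, the remaining licensing gene, passed the test in no comparison.

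Of the helicase activation genes, with both compounds 4 of 6 were lower (Mcm10, Cdc45, Gins1 and Gins2; background 15.8%), with a median log2 difference of -0.11. The count was 2 without DMSO replicates 1, 2 or 3, EpA replicate 1 or combined replicates 1 or 2. Gins1, a subunit of the GINS complex (chr2:150905400-150931280), measured 24.2, 22.99 and 25.7 FPKM in the DMSO libraries, 20.99, 22.3 and 23.7 with EpA, 21.2, 22.99 and 22.5 with fatostatin, and 18.9, 21.01 and 19.9 with both compounds. All libraries with both compounds were below all DMSO libraries, and the EpA libraries overlapped both groups. Its log2 difference with both was -0.28 ± 0.056 (adjusted p = 0.002), the only comparison in which it passed. Gins2, a second subunit (chr8:120578633-120589304), measured 12.4, 12.1 and 12.2 FPKM in the DMSO libraries, 12.5, 12.3 and 12.3 with EpA, 10.7, 11.1 and 11.2 with fatostatin, and 11.5, 10.8 and 11.4 with both compounds. Here EpA overlapped DMSO and both groups with fatostatin were lower, at -0.15 ± 0.030 (adjusted p = 0.0058) with fatostatin and -0.14 ± 0.030 (adjusted p = 0.009) for the combination against EpA. The exons of Gins2 share 2758 bases with Gse1 on the opposite strand, which averaged 2.21 FPKM against 11.7 FPKM for Gins2. Mcm10, an activation factor, and Cdc45, a component of the active helicase, fell by 0.093 ± 0.033 (adjusted p = 0.046) and 0.090 ± 0.031 (adjusted p = 0.045) with both compounds. Exons of Cdc45 share 209 bases with Ufd1, at a mean of 16.7 FPKM, on the opposite strand. The Mcm10 call was lost without DMSO replicates 1, 2 or 3, EpA replicates 1, 2 or 3, fatostatin replicate 3 or combined replicates 1, 2 or 3 (adjusted p = 0.0506 to 0.123). The Cdc45 call was lost without DMSO replicates 1, 2 or 3, EpA replicate 1 or combined replicates 1, 2 or 3 (adjusted p = 0.0583 to 0.129). Of the 20 alternatives, 13 in all ended the Mcm10 call and 10 the Cdc45 call.

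Of the 6 genes of the sliding clamp and its loader, 5 were lower with both compounds than with DMSO (background 15.8%), with a median log2 difference of -0.14, and 4 were lower than with EpA (background 6.79%). The count against DMSO was 3 without DMSO replicate 1 or combined replicate 2, and that against EpA 2 without EpA replicate 2. Rfc4, a subunit of the clamp loader (chr16:23113943-23127737), measured 50.3, 50.1 and 50.2 FPKM in the DMSO libraries, 46.8, 48.6 and 47.3 with EpA, 47.7, 46.4 and 49.1 with fatostatin, and 40.7, 41.99 and 40.8 with both compounds. The libraries with both compounds were the lowest 3 of the 12, and those with either compound alone lay between them and DMSO. The log2 difference was -0.29 ± 0.023 (adjusted p = 2.9e-06) against DMSO, -0.21 ± 0.023 (adjusted p = 1.1e-04) against EpA and -0.21 ± 0.023 (adjusted p = 4.5e-05) against fatostatin. With EpA alone it was -0.079 ± 0.023 (adjusted p = 0.027). That call was lost without DMSO replicates 1, 2 or 3 or EpA replicates 1 or 3 (adjusted p = 0.0601 to 0.0978), and under 6 of 20 alternatives in all. Exons of Rfc4 and Eif4a2, which averaged 67.3 FPKM, share 194 bases on opposite strands. Rfc3, a further loader subunit (chr5:151642756-151651242), measured 15.7, 14.01 and 14.1 FPKM in the DMSO libraries, 15.02, 15.8 and 15.3 with EpA, 13.8, 14.6 and 14.99 with fatostatin, and 12.6, 13.5 and 13.7 with both compounds. EpA and fatostatin alone overlapped DMSO, and all libraries with both compounds were lower than those of the other groups. Against EpA the difference was -0.21 ± 0.050 (adjusted p = 0.013), a call lost without EpA replicate 2 or combined replicate 1 (adjusted p = 0.0502 to 0.051). Against DMSO it was -0.14 ± 0.050 (adjusted p = 0.048), a call lost without DMSO replicate 1, EpA replicates 1, 2 or 3, fatostatin replicates 2 or 3 or combined replicates 1, 2 or 3 (adjusted p = 0.0506 to 0.182) and also with no minimum level, in the fit of the compared groups and with the replicate block. Rfc2, another loader subunit, changed by -0.14 ± 0.037 (adjusted p = 0.012) against DMSO and by -0.13 ± 0.037 (adjusted p = 0.031) against EpA, the latter lost without EpA replicates 1, 2 or 3 or combined replicates 1, 2 or 3 (adjusted p = 0.0544 to 0.095). Pcna measured 289, 287 and 291 FPKM in the DMSO libraries, 296, 293 and 302 with EpA, 266, 279.8 and 283 with fatostatin, and 262, 275 and 279.9 with both compounds. EpA libraries stood at the upper end, and those with both compounds overlapped fatostatin alone and lay below DMSO and EpA. The combination changed Pcna by -0.12 ± 0.028 (adjusted p = 0.01) against EpA and by -0.086 ± 0.028 (adjusted p = 0.031) against DMSO. The latter was lost without DMSO replicates 1, 2 or 3 or combined replicates 1 or 2 (adjusted p = 0.051 to 0.113), and under 6 of 20 alternatives in all. The annotation lists Pcna-ps1 and Pcna-ps2, pseudogenes whose reads the counting could have split from Pcna.

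Of the primase and polymerase genes, the polymerase δ subunits among the members, Pold1 and Pold2, fell with fatostatin and with the combination. Pole2 fell with the combination. With both compounds 5 of 8 were lower (background 15.8%), with a median log2 difference of -0.15. Pold1, the catalytic subunit of polymerase δ (chr7:44532746-44548849), measured 40.1, 41.8 and 41.5 FPKM in the DMSO libraries, 39.2, 38.5 and 36.6 with EpA, 35.8, 38.4 and 37.2 with fatostatin, and 35.7, 34.8 and 35.8 with both compounds. Every treated group was below DMSO, and the EpA and fatostatin libraries overlapped each other. The difference was -0.15 ± 0.031 (adjusted p = 0.009) with fatostatin, -0.21 ± 0.031 (adjusted p = 2.8e-04) with both, and -0.11 ± 0.031 (adjusted p = 0.022) with EpA, the last lost without DMSO replicates 2 or 3 or EpA replicate 3 (adjusted p = 0.0679 to 0.086). Pold2, its second subunit (chr11:5872180-5878292), measured 45.8, 43.2 and 46.4 FPKM in the DMSO libraries, 42.6, 42.3 and 45.4 with EpA, 39.1, 41.5 and 42.3 with fatostatin, and 38.8, 38.8 and 39.2 with both compounds. EpA overlapped DMSO, fatostatin was below DMSO, and the combination was below EpA and overlapped fatostatin. Pold2 fell by 0.21 ± 0.037 (adjusted p = 8.8e-04) with both against DMSO and by 0.14 ± 0.037 (adjusted p = 0.026) with fatostatin. The fatostatin call was lost without DMSO replicates 1 or 3 or fatostatin replicate 1 (adjusted p = 0.0888 to 0.0975), and under 4 of 20 alternatives in all. For the combination against EpA the Pold2 difference was -0.16 ± 0.037 (adjusted p = 0.013), lost without EpA replicate 3 (adjusted p = 0.0513). Pole2, an accessory subunit of polymerase ε (chr12:69201773-69228195), measured 12.5, 11.2 and 12.8 FPKM in the DMSO libraries, 10.98, 11.8 and 11.3 with EpA, 10.9, 11.7 and 11.4 with fatostatin, and 10.5, 10.1 and 9.47 with both compounds. Its exons share 245 bases with Gm49384 on the same strand, whose reads could not be told apart there. The 3 libraries with both compounds were below the other 9, which overlapped one another. With both compounds Pole2 differed by -0.27 ± 0.056 (adjusted p = 0.0027) from DMSO and by -0.18 ± 0.056 (adjusted p = 0.034) from fatostatin. The latter call was lost without fatostatin replicates 2 or 3 or combined replicates 2 or 3 (adjusted p = 0.0676 to 0.126), and under 6 of 20 alternatives in all. Pola1, Pola2 and Prim1 of the primase complex passed in no comparison, and Prim2, the large primase subunit, fell by 0.18 ± 0.035 (adjusted p = 0.0024) with both compounds.

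In lagging strand maturation, Lig1 showed the largest fall of any member with EpA. Lig1, the ligase that seals Okazaki fragments (chr7:13277283-13311433), measured 121, 120.5 and 122 FPKM in the DMSO libraries, 104, 99.2 and 105 with EpA, 119, 120.1 and 120.4 with fatostatin, and 99.7, 97.3 and 97.99 with both compounds. The fatostatin libraries lay just below DMSO, and all 6 libraries with EpA were below all 6 without it. The log2 difference was -0.24 ± 0.020 (adjusted p = 7.5e-06) with EpA, -0.28 ± 0.020 (adjusted p = 1.8e-06) for the combination against fatostatin and -0.30 ± 0.020 (adjusted p = 6.6e-07) against DMSO, while the combination and EpA alone overlapped. Lig1 shares 247 exon bases with Zswim9 on the opposite strand, at a mean of 0.739 FPKM. Rpa2, a subunit of the single strand binding protein RPA (chr4:132768332-132778752), measured 40.3, 39.5 and 39.6 FPKM in the DMSO libraries, 39.99, 37.8 and 38.5 with EpA, 42.1, 43.6 and 42.4 with fatostatin, and 37.9, 39.98 and 38.99 with both compounds. The fatostatin libraries were the highest 3 of the 12, and the other groups overlapped. Rpa2 rose by 0.10 ± 0.027 (adjusted p = 0.028) with fatostatin and differed by -0.13 ± 0.027 (adjusted p = 0.0032) between the combination and fatostatin. The rise was lost without DMSO replicates 1, 2 or 3 or fatostatin replicates 2 or 3 (adjusted p = 0.0506 to 0.101), and under 6 of 20 alternatives in all. Rpa1, the largest RPA subunit, fell by 0.087 ± 0.016 (adjusted p = 0.0013) with both compounds, and Fen1 passed in no comparison.

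Of the 4 genes of nucleotide supply, 3 were lower with both compounds (background 15.8%), with a median log2 difference of -0.11. The count was 1 without DMSO replicate 3 or combined replicate 1. Rrm1, the large subunit of ribonucleotide reductase, measured 68.5, 69.7 and 69.2 FPKM in the DMSO libraries, 65.8, 65.4 and 66.5 with EpA, 66.6, 65.7 and 67.6 with fatostatin, and 63.6, 62.1 and 61.9 with both compounds. Its groups were separate in all 5 comparisons, lowest with both compounds and highest with DMSO, and it fell by 0.14 ± 0.018 (adjusted p = 7.2e-05) with both compounds and by 0.069 ± 0.018 (adjusted p = 0.013) with EpA. Rrm2, the small subunit of the same enzyme, passed in no comparison and measured 216, 206 and 206 FPKM in the DMSO libraries, 221, 219 and 215 with EpA, 205, 215 and 210.2 with fatostatin, and 212, 223 and 211 with both compounds. Tk1, thymidine kinase, and Tyms, thymidylate synthase, fell with both compounds by 0.13 ± 0.039 (adjusted p = 0.02) and 0.079 ± 0.023 (adjusted p = 0.021). The Tk1 call was lost without DMSO replicates 2 or 3 or combined replicate 1 (adjusted p = 0.053 to 0.0795). The Tyms call was lost without DMSO replicates 1 or 3 or combined replicates 1 or 3 (adjusted p = 0.0519 to 0.0725), and under 5 of 20 alternatives in all. Tyms has an annotated pseudogene, Tyms-ps, with which reads could be shared.

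Of the E2F and cyclin E genes, with both compounds 2 of 5 were lower (background 15.8%) and 1 higher, a share near the background (19.7%), and E2f8 and Ccne2 were the members with the largest differences in either direction. E2f8, the atypical repressor (chr7:48866429-48881596), measured 14.8, 14.5 and 14.7 FPKM in the DMSO libraries, 12.8, 12.7 and 13.02 with EpA, 13.6, 13.03 and 13.9 with fatostatin, and 9.91, 10.4 and 10.4 with both compounds. The groups were separate in all 5 comparisons, and the libraries with both compounds were the lowest 3 of the 12. Its exons share 610 bases with Gm2788 on the opposite strand, which averaged 0.0828 FPKM. The log2 difference was -0.19 ± 0.030 (adjusted p = 7.4e-04) with EpA, -0.51 ± 0.030 (adjusted p = 2.2e-07) with both, -0.32 ± 0.030 (adjusted p = 2.5e-05) for the combination against EpA and -0.39 ± 0.030 (adjusted p = 3.1e-06) against fatostatin. With fatostatin alone it was -0.12 ± 0.030 (adjusted p = 0.02). That call was lost without DMSO replicates 1 or 3 or fatostatin replicate 2 (adjusted p = 0.0585 to 0.0742), and under 4 of 20 alternatives in all. E2f2, an activating E2F (chr4:136172394-136196057), measured 24.98, 24.1 and 25.4 FPKM in the DMSO libraries, 22.2, 21.97 and 20.8 with EpA, 22.5, 23.3 and 23.3 with fatostatin, and 21.2, 19.9 and 21.3 with both compounds. All treated libraries were below all DMSO libraries, and the difference was -0.20 ± 0.035 (adjusted p = 0.0014) with EpA and -0.25 ± 0.035 (adjusted p = 1.6e-04) with both, while fatostatin alone did not pass. E2f1, the other activating E2F on the list, measured 13.2, 13.6 and 14.1 FPKM in the DMSO libraries, 14.9, 14.5 and 14.3 with EpA, 13.8, 14.95 and 14.4 with fatostatin, and 13.7, 14.7 and 13.8 with both compounds. The EpA libraries were above DMSO, the other groups overlapped, and E2f1 passed in no comparison.

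Ccne2, cyclin E2 (chr4:11191351-11204779), measured 16.95, 15.9 and 16.1 FPKM in the DMSO libraries, 20.8, 20.6 and 21.5 with EpA, 17.8, 17.4 and 17.7 with fatostatin, and 20.1, 20.1 and 21.1 with both compounds. All 6 libraries with EpA were above all 6 without it, and fatostatin alone was just above DMSO. Ccne2 rose by 0.36 ± 0.031 (adjusted p = 8.0e-06) with EpA, by 0.33 ± 0.031 (adjusted p = 1.0e-05) with both against DMSO and by 0.21 ± 0.031 (adjusted p = 3.9e-04) for the combination against fatostatin, while the combination and EpA overlapped. With fatostatin alone it rose by 0.11 ± 0.031 (adjusted p = 0.031). That call was lost without DMSO replicates 2 or 3 or fatostatin replicates 1, 2 or 3 (adjusted p = 0.0551 to 0.104), and under 6 of 20 alternatives in all. Its exons share 609 bases with Ints8, on the opposite strand and at a mean of 8.92 FPKM, so that without a stated strand setting the reads of the pair cannot be fully told apart. Ccne1, cyclin E1 (chr7:38097984-38107534), measured 24.6, 25.8 and 25.2 FPKM in the DMSO libraries, 27.2, 27.8 and 25.9 with EpA, 23.7, 23.6 and 23.3 with fatostatin, and 22.9, 24.4 and 25.2 with both compounds. The EpA libraries were the highest and above the combination, whose libraries overlapped DMSO and fatostatin. The combination changed Ccne1 by -0.15 ± 0.036 (adjusted p = 0.014) against EpA, and Ccne1 passed in no other comparison. That call was lost without EpA replicate 2 (adjusted p = 0.056), and under 2 of 20 alternatives in all (adjusted p up to 0.0664).

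**Figure D3:**
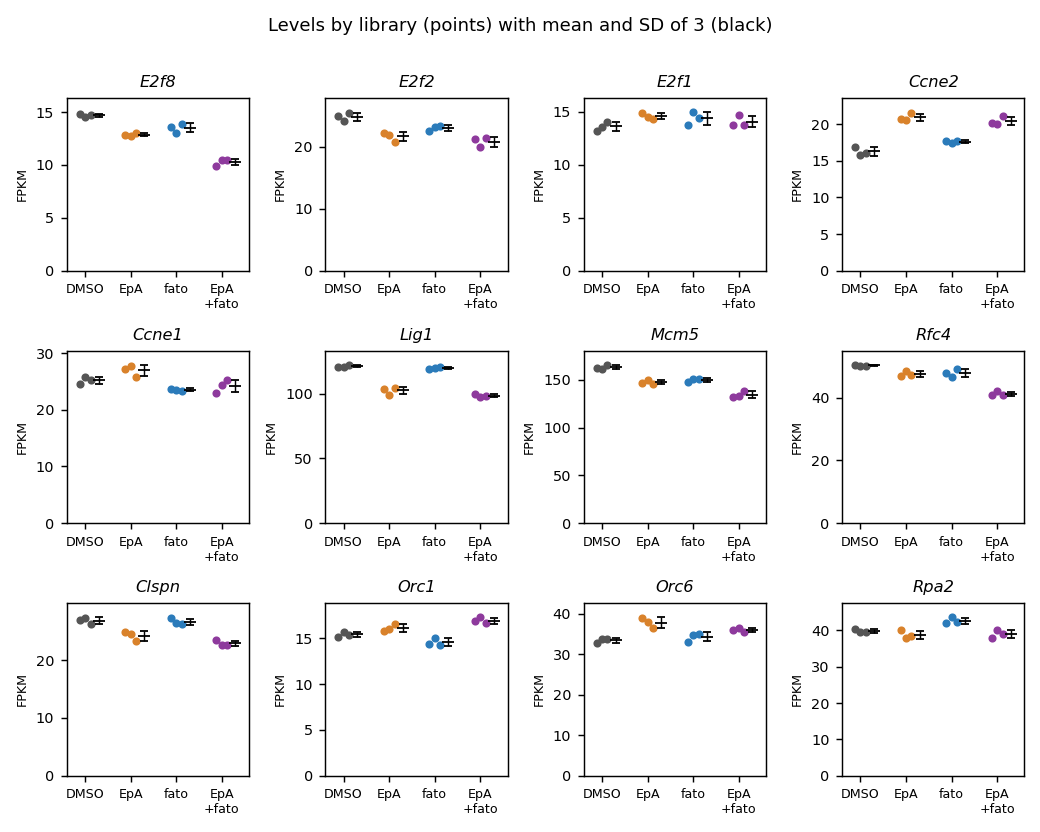
FPKM of 12 members in each library (points, coloured by group) with the mean and SD of the 3 libraries of a group in black, on axes that start at 0. E2f8 and Rfc4 are lowest with both compounds, Lig1 and Clspn are lower and Ccne2 higher in the libraries with EpA, and Rpa2 is highest with fatostatin alone.

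In the last group, 3 of 4 were lower with both compounds (median log2 difference -0.13, background 15.8%). Clspn encodes claspin, the adaptor of the CHK1 checkpoint kinase at the fork (chr4:126556935-126593903), and measured 26.9, 27.3 and 26.2 FPKM in the DMSO libraries, 24.9, 24.4 and 23.2 with EpA, 27.3, 26.3 and 26.2 with fatostatin, and 23.5, 22.7 and 22.6 with both compounds. As for Lig1, the 6 libraries with EpA were below the 6 without it, and fatostatin overlapped DMSO. The difference was -0.15 ± 0.030 (adjusted p = 0.0037) with EpA, -0.22 ± 0.030 (adjusted p = 2.7e-04) for the combination against fatostatin and -0.23 ± 0.030 (adjusted p = 1.4e-04) against DMSO. Slbp, the protein that binds the stem-loop of histone mRNAs, fell by 0.18 ± 0.024 (adjusted p = 1.4e-04) with both compounds, and its exons share 474 bases with Gm10459 on the opposite strand. Uhrf1, which carries DNA methylation through replication, fell by 0.071 ± 0.020 (adjusted p = 0.018) with both compounds. That call was lost without DMSO replicate 3 or combined replicates 2 or 3 (adjusted p = 0.0604 to 0.0766). It was lost under 5 of 20 alternatives in all (adjusted p up to 0.0838). Dtl, the CRL4 substrate receptor that removes CDT1 in S phase, passed in no comparison.

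**Figure D4:**
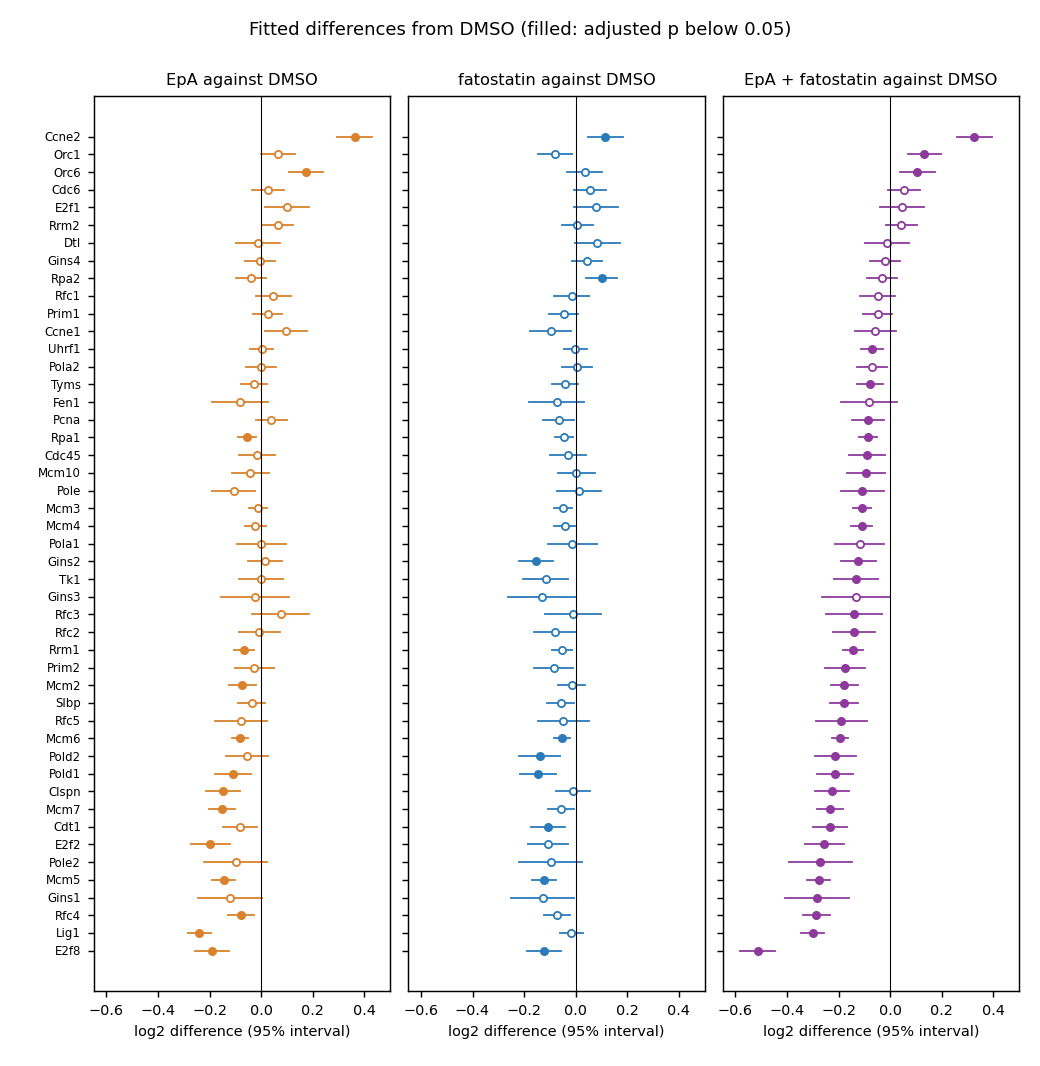
Fitted log2 difference from DMSO with its 95% interval for each of the 47 genes with EpA, with fatostatin and with both compounds, ordered by the value with both, filled where the adjusted p was below 0.05. The right panel runs from E2f8 (-0.51) to Ccne2 (0.33), with 31 filled symbols below 0 and 3 above.

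Whether EpA acted differently on these genes in the presence of fatostatin was tested as the difference between its effects with and without it. No member passed in limma, neither higher (0 of 47, background 0.0364%) nor lower (0 of 47, background 0.00728%), and voom called 0. At an unadjusted p below 0.05, 11 were lower (background 3.51%) and 1 higher (background 4.38%). 40 of 47 estimates were below 0, as were 46.1% of those of all genes, with a median of -0.053, against 0.0090 over all genes. The members furthest from 0 were Rfc3 at -0.20 ± 0.070 (adjusted p = 0.48), with a 95% interval from -0.36 to -0.049, and E2f8 at -0.20 ± 0.043 (adjusted p = 0.27), with an interval from -0.30 to -0.11. The falls described above as larger with both compounds were therefore not shown to exceed the sum of the 2 separate log2 effects.

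Genes next to these in the cell cycle were counted in the same fit. Of 44 other replication genes, which include alternative clamp loaders, replisome protection factors and chromatin assembly factors, 20 were lower and 5 higher with both compounds than with DMSO (median log2 difference -0.072, background 15.8% lower and 19.7% higher). Timeless, a fork protection factor, changed by -0.42 ± 0.023 (adjusted p = 1.4e-07), Dscc1, of an alternative clamp loader, by -0.40 ± 0.059 (adjusted p = 3.1e-04), and Chaf1b, of the chromatin assembly factor CAF-1, by -0.29 ± 0.041 (adjusted p = 2.0e-04). Dctd, deoxycytidylate deaminase, rose by 0.29 ± 0.070 (adjusted p = 0.0068). Of 40 genes of mitosis, 35 were lower (background 15.8%), and their median of -0.25 was further below 0 than the -0.12 of the 47 replication genes, with no test of that difference. Cdc25b, an activating phosphatase of CDK1, changed by -0.59 ± 0.028 (adjusted p = 4.0e-08), Ube2c, of the anaphase-promoting complex pathway, by -0.44 ± 0.028 (adjusted p = 3.5e-07), and Ccnb2, cyclin B2, by -0.42 ± 0.031 (adjusted p = 1.3e-06). Fatostatin alone lowered 22 of the 40 mitosis genes (background 6.31%) and EpA alone 14 (background 13.1%).

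The 22 tested regulators of the G1/S transition moved in both directions, 7 lower and 7 higher with both compounds (background 15.8% and 19.7%), with a median of -0.0092. The count lower was 3 without DMSO replicate 1 or combined replicate 2 and 4 without DMSO replicate 3 or combined replicate 1. Cdkn1a, which encodes the CDK inhibitor p21, measured 25.96, 26.3 and 26.3 FPKM in the DMSO libraries, 52.3, 52.4 and 51.99 with EpA, 50.9, 52.5 and 53.3 with fatostatin, and 84.99, 87.3 and 89.5 with both compounds. All treated libraries were above all DMSO libraries, the 2 single treatments overlapped, and the combination was highest. It rose by 0.99 ± 0.022 (adjusted p = 4.3e-10) with EpA, 0.99 ± 0.022 (adjusted p = 2.9e-10) with fatostatin and 1.73 ± 0.022 (adjusted p = 2.0e-12) with both. E2f5, a repressive E2F, rose by 0.63 ± 0.055 (adjusted p = 5.4e-06) with both, and Ccnd2, cyclin D2, by 0.51 ± 0.025 (adjusted p = 4.9e-08). Rbl1, the RB-related pocket protein p107, measured 30.3, 29.7 and 29.5 FPKM in the DMSO libraries, 27.1, 25.8 and 24.7 with EpA, 29.2, 28.1 and 26.99 with fatostatin, and 23.4, 21.8 and 22.95 with both compounds, and fell by 0.39 ± 0.040 (adjusted p = 1.6e-05) with both. Exons of Cdkn1a share 273 bases with an annotated gene on the opposite strand, and Timeless, Dscc1, Cdc25b, Ube2c, E2f5 and Ccnd2 have such overlaps of 26 to 592 bases.

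The members were finally split by the E2F words in their promoters. With both compounds, 12 of 17 members with a word were lower, with a median log2 difference of -0.19, and 13 of 22 members without a word, with a median of -0.087 (background 15.8%). The second count was 8 without DMSO replicate 3. The medians were -0.081 and -0.033 with EpA alone and -0.052 and -0.046 with fatostatin alone. The split was made on sequence alone and the difference between the sets was not tested. E2f8, the member that fell most, had a window without any of the 4 words. The 17 members held 21 sites, overlapping words counted as 1, whose median first position was 8 bases before the transcription start (-8). Of 33 mitosis genes with a window, 1 held an E2F word (3.03%) and 25 held CCAAT (75.8%), against 2.60% and 41.1% of all genes with a window.

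**Figure D5:**
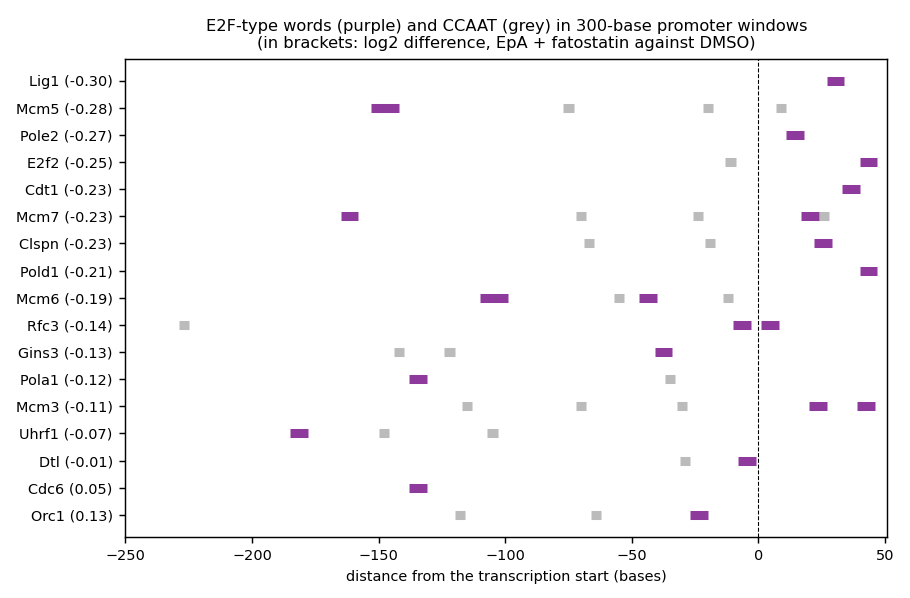
Positions of the E2F words (purple) and of CCAAT (grey) in the promoter windows of the 17 members with an E2F word, in bases from the transcription start (dashed), with the log2 difference for both compounds against DMSO in brackets and the genes ordered by it. The purple marks lie mostly close to the start, at a median of -8, both for Lig1 (-0.30) at the top and for Orc1 (0.13) at the bottom.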

How the data were processed

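The 12 RNA-seq libraries of Th9 cells, in 4 groups of 3, were analysed from the FPKM table the authors deposited. Per the study's methods, reads went through Trim Galore for adapter and quality trimming, HISAT2 for alignment against GRCm38 and featureCounts for counting, and the authors converted these counts to FPKM. The annotation release and the strand setting of the counting are not given in the sources used here, and the library kit is named only as a TruSeq RNA kit. Of 32352 lines, 301 repeated a gene with the same values and were used once, which left 32051 genes. Every library column was matched to a sample (0 columns without one). FPKM values have no count model, so log2(FPKM + 0.1) was fitted in limma 3.58.1 (R 4.3.3) with a trend in the variance, 4 group means and no other term, over the 13733 genes whose mean reached 0.1 FPKM. Fold changes are on this scale, which understates changes of low genes. P-values were adjusted by Benjamini-Hochberg over all genes tested, with a threshold of 0.05, and the fold threshold was 1.5. Errors of log2 differences are SEs, those of levels are SDs. The script was tested on simulated data with known changes.

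Groups were taken from the treatment labels. Reads were recovered from FPKM with exon lengths of GENCODE M21 and used only for voom, an alternative test. The other alternatives were a pseudocount of 1, a minimum of 1 FPKM or none, TPM and median ratio scaling, fits on the compared groups alone, the replicate number as a block, a fold of 1.2, and each library left out. Gene positions and exon overlaps are from GENCODE M21 (GRCm38), promoter windows from RefSeq (GRCm38.p6). The 47 members and all gene lists were chosen with earlier results of these data known. Values in every library were given for up to 5 members per direction and comparison with the largest difference among those past the threshold, plus the Mcm2 to Mcm7 subunits, Pcna, Ccne1, Ccne2, E2f1, E2f2 and E2f8. Of the other lists up to 3 genes per direction could be named. Cdt1, Rrm1, Rrm2 and the library values of Cdkn1a and Rbl1 were added after their values were seen. With 3 against 3 libraries the smallest p of a permutation test is 0.1, so none was run for single genes.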

Additional observations from a re-analysis of the deposited data

Results flagged for a closer look

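Cdkn1a, a CDK inhibitor gene among the G1/S regulators and not one of the 47 members, was flagged because the effect of EpA differed between cells with and without fatostatin. The difference was -0.25 on the log2 scale, the rise with EpA being smaller where fatostatin was present. By limma the adjusted p was 0.037, and it passed in 8 of 20 alternatives and missed the threshold in 12, among them the replicate block and the fits without any 1 of the libraries except fatostatin replicate 1, with adjusted p-values over all alternatives from 0.0027 to 0.15.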

How the results depend on the processing

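The counts of members passing the test were recomputed under each alternative. With a fold of at least 1.2 in place of 1.5, 1 member passed with EpA against DMSO (10.9% of all genes), 1 with both compounds against EpA (6.17%), 2 with both against fatostatin (12.3%) and 7 with both against DMSO (16.5%), where none passed 1.5-fold. The count raised by fatostatin fell from 2 to 1 in the fit of the compared groups alone and with the replicate block. Leaving out 1 library at a time gave 8 to 12 members lowered and 2 to 3 raised by EpA, 3 to 9 and 0 to 2 by fatostatin, 15 to 21 and 0 for both against EpA, 15 to 21 and 2 for both against fatostatin, 25 to 32 and 2 to 3 for both against DMSO, and 0 in either direction for EpA's effect with against without fatostatin. The other counts stayed within 1.5 times. Of 100 member differences that passed, 63 passed under all 20 alternatives and 0 changed sign under any. TPM scaling ended 15 of them, no minimum 13, the fit of the compared groups 20, the replicate block 10 and voom 1. The cause of these losses was not tested.

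Replicate numbers were shared by the labels of all groups. Residual correlations were -0.047 to 0.074 over 18 pairs of libraries with the same number. Over 36 pairs with different numbers they were -0.086 to 0.049. These values cannot decide whether libraries with the same number shared a culture or preparation. With the replicate block the fatostatin comparison had 1 member higher.

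Depth was at least 36019740 reads on genes per library and at least 411 reads per member. SEs ran from 0.014 to 0.060 on the log2 scale, and nothing separates fewer cells in S phase from less transcript per cell.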
